A study of Mus musculus with 12 samples.

Results

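The ADAMTS proteases, the matrix metalloproteinases (MMPs) and their tissue inhibitors (TIMPs) were followed in whole retinas of mice in which Otx2 was deleted from photoreceptors (PRs). The genes were chosen by name and count: a protein-coding gene whose symbol begins with Adamts, or is Mmp or Timp with a number, and which had at least 10 counts in at least 3 of the 12 libraries. Of 54146 genes counted, 50 carried such a name and 39 met the count rule, as 17 ADAMTS proteases, 5 ADAMTS-like genes, 13 MMPs and 4 TIMPs. The other 11 (Adamts13, Adamts14, Mmp1b, Mmp3, Mmp7, Mmp8, Mmp10, Mmp20, Mmp21, Mmp25 and Mmp27) had at most 5 counts in any mouse.

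These enzymes cut the proteins of the extracellular matrix. MMPs are zinc proteases that are made as inactive precursors and cleave collagens, other matrix proteins and cell surface proteins, either as secreted enzymes or anchored to the membrane. ADAMTS proteases are secreted relatives with thrombospondin repeats that bind matrix, and different members cleave the lecticans (aggrecan, versican and their kin) or trim procollagens, while the ADAMTS-like proteins keep the repeats but have no protease domain. TIMPs block the active site of MMPs and, for TIMP3, of several ADAMTS enzymes too. In the eye, TIMP3 is laid down by the retinal pigmented epithelium (RPE) in the membrane beneath it, and its mutation causes Sorsby fundus dystrophy.

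Each library was made from the retina RNA of a different mouse, with 3 mice per age. The cKO mice carried Crx-CreERT2 and Otx2 flox/flox on a 129/SV background, received tamoxifen once at P30, and were killed 2 d (P32, mice 4 to 6), 4 d (P34, mice 7 to 9) or 8 d (P38, mice 10 to 12) later. The P30 mice (1 to 3), killed at 0 d, are labelled control of the Crx line, and their alleles are not given in the labels. The Cre is driven by Crx, a PR gene, and the study states that its whole-retina RNA includes RNA of the RPE. Age, tamoxifen and the deletion changed together between P30 and the later ages and cannot be told apart. In whole-retina RNA, fewer cells of a type and less RNA per cell cannot be told apart either.

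Counts on genes came to 29701483 to 60145034 per library. Levels are given as CPM (counts relative to all counts on genes, after TMM scaling), so that 3 counts were worth 0.0473 to 0.102 CPM. Otx2 itself lay between 293 and 377 CPM in all 12 mice, and reads on the exon that the deletion removes were not analysed here. Rod markers (Gnat1, Pde6b, Nrl and Sag) summed to 22045 to 38274 CPM, so the libraries were retinal as labelled. Markers of tissues next to the retina differed between libraries, some within ages and some between them. The sum of 6 lens genes (Cryaa, Crygs, Bfsp1, Bfsp2, Mip and Lim2) was 3871 to 29196 CPM in mice 1, 3, 4, 5, 10, 11 and 12 and 181 to 501 CPM in mice 2, 6, 7, 8 and 9. The sum of 5 ciliary body and iris genes (Optc, Best2, Mfrp, Wfdc1 and Zic1) was 130 to 150 CPM at P30, 57.8 to 148 CPM at P32, 13.7 to 20.7 CPM at P34 and 56.2 to 105 CPM at P38. The sums of 6 pigment cell genes (Tyr, Tyrp1, Pmel, Mlana, Dct and Slc45a2) and 6 smooth muscle genes (Myh11, Acta2, Tagln, Cnn1, Myl9 and Des) were 820 and 181 CPM in P30 mouse 2 and 669 and 198 CPM in P30 mouse 3, against 29.8 to 129 and 9.33 to 48.7 CPM in the other 10 mice. Fibroblast genes (Col1a1, Col1a2, Col3a1, Dcn, Lum and Pdgfra) summed to 64.2 to 94.9 CPM at P30, 38.4 to 72.5 at P32, 26.5 to 49.4 at P34 and 50.1 to 88.8 at P38. P32 mouse 4 had the lowest balance of long against short transcripts (a median log2 difference of -1.18, against -0.19 to 0.41 in the other mice). By Xist and Y-linked genes, all 3 P30 mice were female and mice 4, 7, 8, 10 and 11 were male.

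3 of the 4 TIMP genes sit inside synapsin genes, on the opposite strand. Timp1 (GRCm38, chrX:20870166-20874735, plus strand) lies within Syn1, Timp3 (chr10:86300372-86349506, plus strand) within Syn3 and Timp4 (chr6:115241892-115252205, minus strand) within Syn2. Exons of Syn3 cover 21.3% of the exon length of Timp3. Genes on the opposite strand also cover 22.3% (Tmem198b) and 6.0% (Gm47093) of Mmp19, 10.6% of Adamts8 (Gm29724) and 1.5 to 5.6% of Adamts4, Adamts7, Mmp11, Mmp12 and Timp4. The library kit kept the strand, Syn3 was at 2.07 to 8.98 CPM, and the strand option of the counting is not given in the sources used here.

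Promoters are shown for 5 genes because their levels shared a pattern across these libraries: Timp3, Timp1 and Adamts9, which were low in the P34 mice, and Adamts18 and Adamtsl4, which were low and high in nearly the same mice. The RefSeq table of GRCm38.p6 promoters held 24 of the 39 genes, and the bases upstream of the transcript start are printed 5′ to 3′ on the strand of the gene. Capitals mark the GC box (GGGCGG, on either strand), a motif bound by SP1-type factors. The windows are chr10:86300162-86300371 (plus strand) for Timp3, chrX:20869916-20870165 (plus strand) for Timp1, chr6:92943535-92943784 (minus strand) for Adamts9, chr8:113848840-113849089 (minus strand) for Adamts18 and chr3:95687918-95688167 (minus strand) for Adamtsl4. The windows of Adamts9 and Adamts18 follow a RefSeq start upstream of the GENCODE start of the gene (92943492 and 113848738), so they do not abut the latter.
Timp3: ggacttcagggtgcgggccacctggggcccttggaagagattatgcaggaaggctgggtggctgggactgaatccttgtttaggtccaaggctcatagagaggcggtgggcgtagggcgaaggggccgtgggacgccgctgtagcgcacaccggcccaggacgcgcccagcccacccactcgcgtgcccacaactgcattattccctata
Timp1: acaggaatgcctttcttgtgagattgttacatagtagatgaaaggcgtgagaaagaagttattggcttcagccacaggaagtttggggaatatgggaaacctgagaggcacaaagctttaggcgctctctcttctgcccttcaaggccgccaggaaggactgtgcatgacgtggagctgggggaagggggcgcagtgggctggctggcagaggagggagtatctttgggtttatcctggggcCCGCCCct
Adamts9: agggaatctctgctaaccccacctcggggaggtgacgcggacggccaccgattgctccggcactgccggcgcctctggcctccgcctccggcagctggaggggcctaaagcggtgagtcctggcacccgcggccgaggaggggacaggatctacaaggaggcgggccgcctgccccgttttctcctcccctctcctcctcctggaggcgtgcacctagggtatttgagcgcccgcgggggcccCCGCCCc
Adamts18: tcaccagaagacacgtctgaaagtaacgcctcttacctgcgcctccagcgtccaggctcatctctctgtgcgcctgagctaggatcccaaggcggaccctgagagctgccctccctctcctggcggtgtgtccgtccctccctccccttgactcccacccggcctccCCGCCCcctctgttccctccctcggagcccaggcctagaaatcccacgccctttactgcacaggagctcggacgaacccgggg
Adamtsl4: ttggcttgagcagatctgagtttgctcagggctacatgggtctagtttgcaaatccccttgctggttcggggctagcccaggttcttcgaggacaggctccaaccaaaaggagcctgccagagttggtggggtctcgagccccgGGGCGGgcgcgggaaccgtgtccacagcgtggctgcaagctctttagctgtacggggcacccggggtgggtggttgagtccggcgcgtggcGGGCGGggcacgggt
A GC box stood in the 250 bases before the start in 18 of the 26 windows of these genes and in 32.7% of all 32851 windows. For Timp3 it lay in the last 40 bases, which belong to an annotated transcript and are left out above. The letters TAATCC, the core bound by OTX2 and CRX, stood in 0 of the 26 windows and in 6.25% of all windows, read on both strands. The AP-1 letters TGANTCA stood in Mmp12 and Mmp13, against 6.75% of all windows, and the E box letters CACGTG in Adamts17, against 6.02%. These are matches of letters in a short window, and binding was not measured.

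0 of the 38 genes tested passed the threshold in any comparison of ages (Benjamini-Hochberg adjusted p of at most 0.05 over all 18628 genes tested, edgeR quasi-likelihood, and a log2 fold change no smaller than 0.5 in either direction). Mmp13, with at most 12 counts in a mouse, was too low to be tested. Over all genes, the share past this threshold was 0% at P32, 0.66% at P34 (123 genes, all lower) and 0% at P38 against P30, 0.242% for P34 against P32 and 0.199% for P38 against P34. For any difference over the 4 ages, where only the adjusted p applies, it was 0.344%. With DESeq2, Timp3 and Adamts9 (5.26% of the 38) passed as lower at P34 than at P30, beside 1.9% of all genes. Of the 36 that DESeq2 gave an adjusted p between P32 and P34, Timp1 (2.78%) passed as lower, beside 5.13% of all genes, and Mmp16 (2.78%) as higher, beside 3.52%. For any difference, Timp3, Timp1 and Mmp14 (7.89%) passed, beside 7.65%. Except for P34 against P30, these shares are near or below those of all genes.

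At an unadjusted p of at most 0.05 with the same limit on the fold change, most of the lower genes were found at P34. Against P30, 11 of the 38 genes (28.9%) were lower at P34, beside 5.42% of all genes, and 0 were higher, beside 0.854%. At P32 the counts were 2 lower (5.26%, beside 1.77% of all genes) and 0 higher (beside 1.13%), and at P38 they were 5 lower (13.2%, beside 2.66%) and 0 higher (beside 0.805%). Between P32 and P34, 6 genes (15.8%) were lower, beside 8.93% of all genes, and 2 were higher (5.26%), beside 5.49%. Between P34 and P38, 4 genes (10.5%) were higher, beside 3.01% of all genes, and 0 were lower, beside 0.8%. For any difference over the 4 ages, 11 genes (28.9%) had an unadjusted p of at most 0.05, beside 17.2% of all genes. Medians of the log2 fold changes were -0.11, -0.31 and 0.03 for the 38 genes at P32, P34 and P38 against P30, beside -0.01, -0.00 and -0.01 for all genes. The 3 comparisons with P30 share their control mice.

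Counted by mice, the P34 values of 13 of the 38 genes (34.2%) all lay below the P30 values, beside 9.67% of all genes, and those of 2 (Mmp16 and Mmp24) all lay above, beside 10.4%. At P38, 6 genes (15.8%) lay wholly below P30, beside 7.96% of all genes, and 2 (Adamts3 and Timp4) wholly above, beside 8.23%. At P32, 2 genes (Adamts16 and Mmp28) lay wholly below, beside 4.39%, and Adamts5 wholly above, beside 5.26%.

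**Figure D1:**
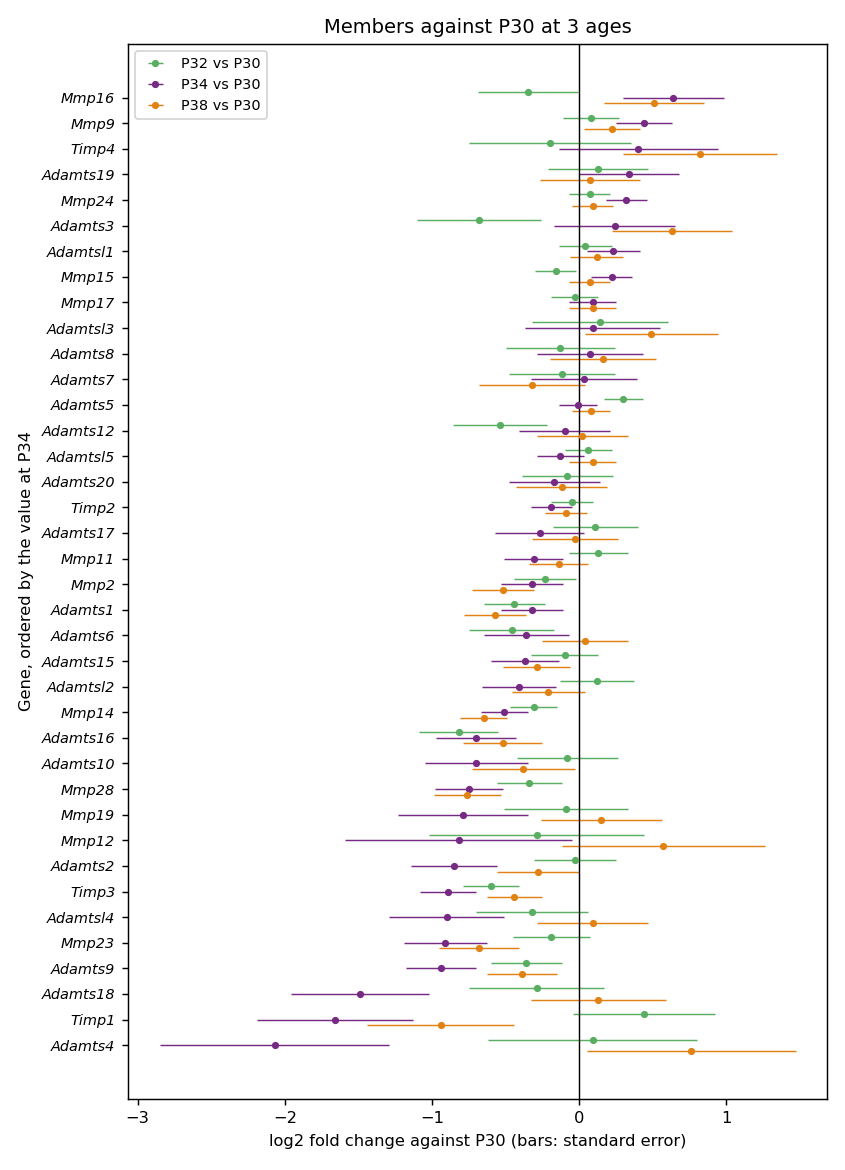
Log2 fold change against P30 (horizontal axis) of the 38 genes tested, ordered by their value at P34, with points for P32, P34 and P38 and bars of 1 standard error. At P34 the values ran from -2.07 for Adamts4 to 0.64 for Mmp16, and 26 of the 38 were negative.

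Among the inhibitors, Timp3 was the member with the smallest p against P30 at P34 and at P32. It was at 112, 152 and 188 CPM in the P30 mice. The cKO mice had 83.1, 127 and 87.7 (P32), 85.5, 80.2 and 77.9 (P34) and 116, 121 and 95.5 CPM at P38. All P34 mice lay below all P30 mice, while P32 mouse 5 and P38 mice 10 and 11 lay within the range of P30. Timp3 went from 151 ± 38 CPM (SD, n = 3) at P30 to 81.2 ± 3.91 CPM at P34, a log2 fold change of -0.89 ± 0.19 (standard error, SE; adjusted p = 0.0771, edgeR). Its log2 fold change was -0.60 ± 0.19 (SE, adjusted p = 0.698) at P32 and -0.44 ± 0.19 (SE, adjusted p = 0.847) at P38, and from P34 to P38 it was 0.45 ± 0.19 (SE, adjusted p = 0.928). Whether Timp3 passed at P34 depended on the tool and on which mice were used: without P30 mouse 1 the adjusted p was 0.02, with DESeq2 it was 0.00151, and over all alternatives it ran from 0.00151 to 0.84. The sum of the ciliary body and iris genes was lowest at P34 as well, where Best2 was at 0.0677 to 0.249 CPM and the other 4 genes at 2.47 CPM or more. Most of that sum at P30 was Optc, at 73.8 to 99.0 CPM, against 2.47 to 4.06 CPM at P34. Mfrp was not lowest at P34, where it had 2.67 to 4.64 CPM, against 3.97 CPM in P30 mouse 1 and 1.47 CPM in P32 mouse 4. With the ciliary body and iris score as a covariate the log2 fold change of Timp3 became -0.27 (adjusted p = 0.534) at P32 and 0.40 (adjusted p = 0.84) at P34, and 0 genes of the whole table passed at any age. The sums of the 3 P34 mice overlap those of no other mouse, so this covariate and the age P34 can hardly be told apart in these libraries. The SE of Timp3 at P34 was 0.49 with the covariate and 0.19 without it, and over the 38 genes the SE was a median of 3.17 times as large. The ratios ran from 2.10 to 3.40, except for Adamts19 at 5.06, whose log2 fold change with the covariate was 0.00. The loss of calls and the turned signs with this covariate, here and in the genes below, are therefore no measure of whether the P34 values differ. The 6 RPE genes (Rpe65, Lrat, Rgr, Rdh5, Best1 and Ttr) summed to 83.6 to 245 CPM at P30 and 132 to 214 CPM at P34, so the P34 sums lay within the range of P30. The pigment cell genes, several of which the RPE also expresses, summed to 116, 820 and 669 CPM at P30 and 38.6 to 54.1 CPM at P34, wholly below. P30 mouse 1 was lowest of its age in Timp3, in pigment cell genes and in smooth muscle genes, and their part in the change was not tested. Without P30 mouse 2 the log2 fold change of Timp3 at P34 was -0.89 (adjusted p = 0.199), and without P30 mouse 3 it was -0.71 (adjusted p = 0.227).

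Timp1, an X-linked inhibitor of many secreted MMPs, was near the lower end of detection. It had 0.883, 1.13 and 0.832 CPM in the P30 mice, 2.40, 1.09 and 0.419 (P32), 0.359, 0.294 and 0.237 (P34) and 0.607, 0.516 and 0.339 CPM at P38. The P34 and P38 mice all lay below the P30 mice, and the P32 mice spread over both sides, with P32 mouse 4 above all others. Its log2 fold change was -1.66 ± 0.53 (SE, adjusted p = 0.291) at P34 against P30 and -2.10 ± 0.53 (SE, adjusted p = 0.0948) against P32. Without P32 mouse 4 the difference between P34 and P32 was -1.32 (adjusted p = 0.237), and without P32 mouse 6 it was -2.53 (adjusted p = 0.0101). With sex as a covariate the log2 fold change at P34 against P30 was -2.45 (adjusted p = 0.0447). With the ciliary body and iris score as a covariate its sign turned, to 1.73 (adjusted p = 0.78) against P30 and 0.59 (adjusted p = 0.936) against P32.

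Timp2, which besides blocking MMPs helps MMP14 to activate pro-MMP2, changed little. Its values overlapped at all ages, from 88.4 to 104 CPM at P30 down to 73.6 to 92.4 CPM at P34, and its log2 fold changes against P30 were between -0.19 and -0.05 (SE 0.14 each). Timp4 was at 0.268, 0.363 and 0.327 CPM at P30 and at 0.607, 0.539 and 0.543 CPM at P38. The P38 mice lay above the P30 mice, but P34 mouse 9 was higher still at 0.880 CPM while P34 mouse 8 had 0.122 CPM, and the log2 fold change at P38 was 0.82 ± 0.52 (SE, adjusted p = 0.847).

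**Figure D2:**
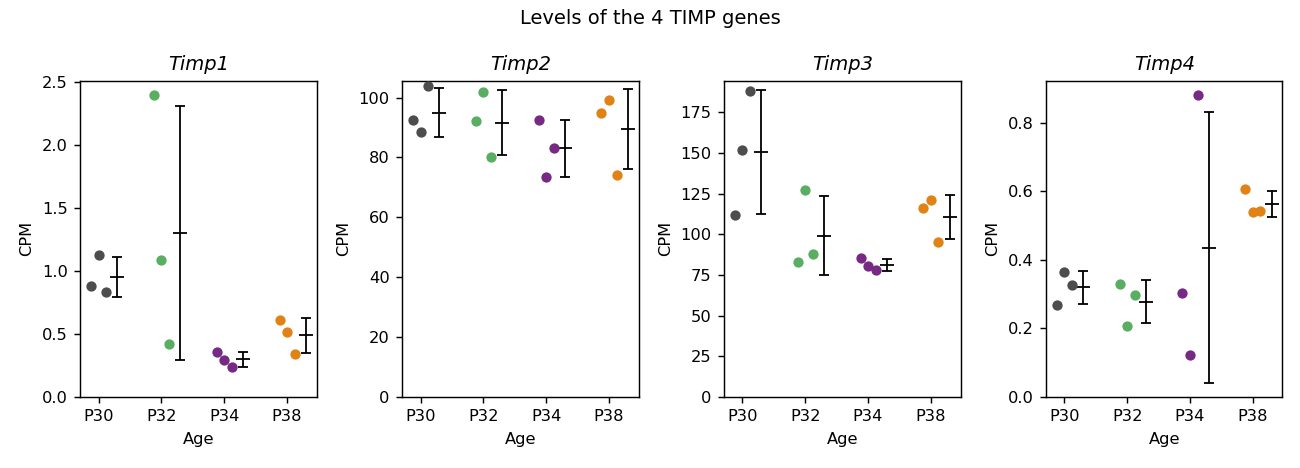
CPM of Timp1, Timp2, Timp3 and Timp4 (vertical axes, each from 0) by age, with a point per mouse and a bar for the mean and SD of 3 mice. Timp3 and Timp1 have their lowest values in the P34 mice, Timp2 overlaps at all ages, and Timp1 spreads most at P32.

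Among the membrane-type MMPs, the P34 and P38 values of Mmp14 lay below those of P30, and the P34 values of Mmp16 lay above them. Mmp14, the membrane enzyme that activates pro-MMP2 and cuts fibrillar collagen, was at 16.6, 21.5 and 16.0 CPM at P30. It had 16.3, 14.7 and 12.8 (P32), 12.0, 12.4 and 13.6 (P34) and 9.46, 13.6 and 11.4 CPM at P38. All 6 later mice lay below the P30 mice, and P32 mice lay on both sides of the lowest of them. Its log2 fold change was -0.31 ± 0.16 (SE, adjusted p = 0.698) at P32, -0.51 ± 0.16 (SE, adjusted p = 0.29) at P34 and -0.65 ± 0.16 (SE, adjusted p = 0.655) at P38, where Mmp14 had the smallest p of the 38 genes. Mmp16 was at 2.68, 4.14 and 5.32 (P30), 1.74, 2.74 and 4.98 (P32), 6.35, 6.34 and 6.16 (P34) and 4.68, 5.49 and 7.13 CPM at P38. The P34 mice lay above all P30 and P32 mice, P38 mice overlapped P30, and P32 mouse 4, with the lowest balance of long against short transcripts, was lowest. From P32 to P34 its log2 fold change was 0.99 ± 0.34 (SE, adjusted p = 0.115), without P32 mouse 4 it was 0.70 (adjusted p = 0.314), and with the ciliary body and iris score as a covariate it was 0.03 (adjusted p = 0.994).

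Mmp24, a membrane enzyme of neurons, was at 27.9, 28.2 and 28.1 CPM at P30 and at 38.8, 31.8 and 34.8 CPM at P34. The P34 mice lay above P30, but the log2 fold change was 0.32 ± 0.14 (SE, adjusted p = 0.467). Exons of BC029722, on the opposite strand, cover 13.6% of the exon length of Mmp24. Mmp15 was at 10.4, 12.2 and 13.2 CPM at P32 and at 18.1, 13.3 and 15.0 (P34), a log2 fold change of 0.38 ± 0.14 (SE, adjusted p = 0.128). With the ciliary body and iris score as a covariate it was 0.63 (adjusted p = 0.783). Mmp17, the fifth of this type, overlapped at all ages, at 21.1 to 31.3 CPM.

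Of the gelatinases, which digest denatured collagen and the collagen of basement membranes, Mmp2 and Mmp9 had log2 fold changes of opposite sign at P34. Mmp2 was at 4.97, 5.88 and 4.64 (P30), 3.89, 3.97 and 4.54 (P34) and 2.62, 4.46 and 3.73 CPM at P38. The P34 and P38 mice all lay below P30, with a log2 fold change at P38 of -0.52 ± 0.21 (SE, adjusted p = 0.847). Mmp9 was at 20.2, 18.8 and 26.1 CPM at P30 and at 38.1, 21.9 and 28.1 (P34), a log2 fold change of 0.44 ± 0.19 (SE, adjusted p = 0.443). Mice of the 2 ages overlapped, and the highest value was that of P34 mouse 7.

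Among the other MMPs, the P34 and P38 values of Mmp28 and Mmp23 lay below those of P30, and neither gene passed the threshold. Mmp28 (epilysin) was at 2.33, 2.16 and 2.32 (P30), 1.44, 1.84 and 2.09 (P32), 1.63, 1.22 and 1.18 (P34) and 1.33, 1.59 and 1.09 CPM at P38. All 9 cKO mice lay below all 3 P30 mice. The log2 fold change was -0.34 ± 0.22 (SE, adjusted p = 0.698) at P32, -0.75 ± 0.23 (SE, adjusted p = 0.255) at P34 and -0.76 ± 0.23 (SE, adjusted p = 0.847) at P38. Exons of 1700020L24Rik, on the opposite strand, cover 12.0% of the exon length of Mmp28. Mmp23 was at 0.946, 0.767 and 0.951 (P30), 0.810, 0.879 and 0.641 (P32), 0.387, 0.514 and 0.508 (P34) and 0.437, 0.704 and 0.509 CPM at P38. The P32 mice overlapped P30, and P34 and P38 lay below it with log2 fold changes of -0.91 ± 0.28 (SE, adjusted p = 0.254) and -0.68 ± 0.27 (SE, adjusted p = 0.847). With the ciliary body and iris score as a covariate the P34 values were -0.54 (adjusted p = 0.884) for Mmp23 and -0.47 (adjusted p = 0.87) for Mmp28. Mmp11, Mmp12 and Mmp19 had log2 fold changes between -0.82 and -0.31 at P34, none below an unadjusted p of 0.05.

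**Figure D3:**
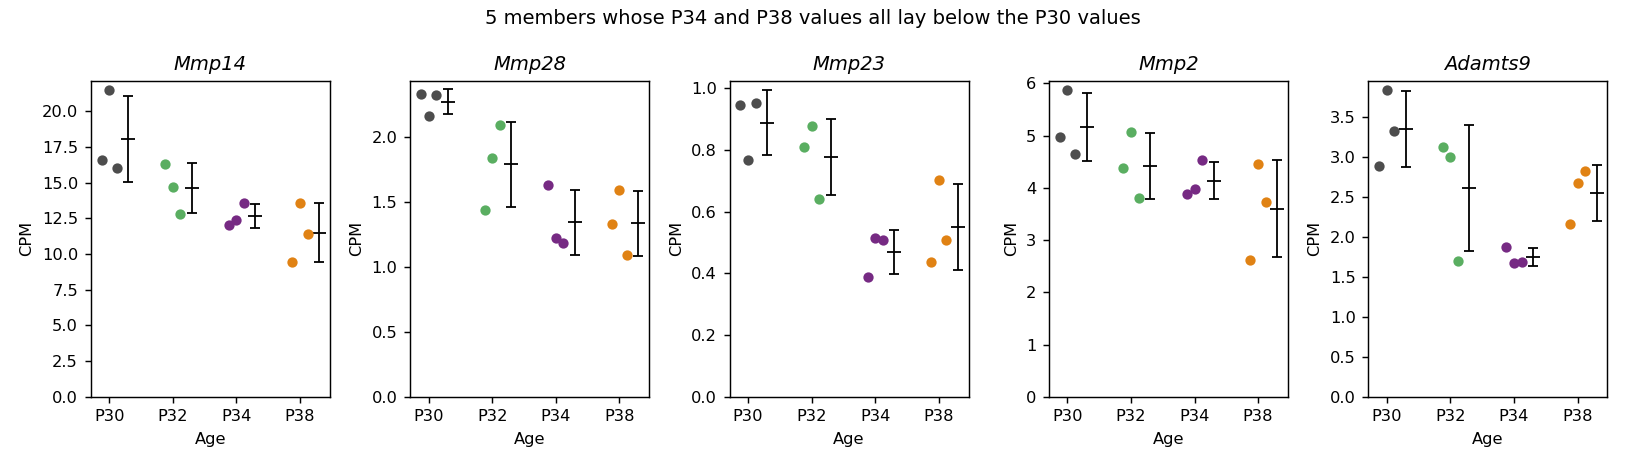
CPM of Mmp14, Mmp28, Mmp23, Mmp2 and Adamts9 (vertical axes, each from 0) by age, with a point per mouse and a bar for the mean and SD of 3 mice. The 5 genes were chosen for drawing after their values were seen, and in all panels every P34 and P38 point lies below the lowest P30 point, and for Mmp28 the P32 points do too.

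Adamts4 and Adamts18, both ADAMTS proteases, split the mice across ages. Adamts4, which cleaves aggrecan and other lecticans, was at 4.35, 1.43 and 4.16 (P30), 4.83, 4.50 and 1.31 (P32), 0.718, 0.588 and 1.08 (P34) and 8.69, 7.34 and 0.747 CPM at P38. Adamts18, whose mutation disturbs eye development, was at 25.4, 10.7 and 29.2 (P30), 22.5, 23.2 and 7.64 (P32), 7.48, 7.67 and 8.09 (P34) and 31.7, 27.9 and 11.5 CPM at P38. For both genes mice 1, 3, 4, 5, 10 and 11 were high and mice 2, 6, 7, 8, 9 and 12 low, with no value between the sets, so each age but P34 held mice of both kinds. The highest value was 14.8 times the lowest for Adamts4 and 4.24 times for Adamts18. The SD of log2 CPM within ages was 1.20 for Adamts4 and 0.72 for Adamts18, at the 98.3 and 92.6 percentiles of all genes tested.

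Adamtsl4, a fibrillin-binding protein of the lens zonule whose loss displaces the lens, followed much of this order. It was at 8.55, 10.2 and 17.8 (P30), 12.2, 11.5 and 5.42 (P32), 6.65, 7.15 and 5.69 (P34) and 14.2, 17.9 and 6.65 CPM at P38. Its low mice were the same except that P30 mouse 2 was above P30 mouse 1. The lens genes moved with these 3 genes: the 6 mice high in Adamts4 and Adamts18 had lens sums of 3907 to 29196 CPM, and of the low mice 5 had 181 to 501 CPM and mouse 12 had 3871 CPM. All 6 lens genes were detected in every mouse. Within the high mice the order differed, since the lens sum was highest in P32 mouse 4 and Adamts4 in P38 mouse 10. The 4 cornea genes (Krt12, Krt5, Krt14 and Aldh3a1) summed to 14.5 to 50.9 CPM in the high mice and 0.715 to 3.97 CPM in the low mice. Aldh3a1 made this split, at 14.0 to 37.7 CPM in the high mice and 0.419 to 1.32 CPM in the low mice. The keratins did not follow it: Krt12 was at 0.305 to 0.873 CPM in high mice 3, 10 and 11 and at 2.03 CPM in low mouse 8. The ciliary body and iris sum was 13.7 to 57.8 CPM in mice 6, 7, 8, 9 and 12, 89.4 to 150 CPM in the high mice and 130 CPM in mouse 2. The part of these markers in the values was not tested.

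From P34 to P38 the log2 fold change was 2.83 ± 0.79 (SE, adjusted p = 0.44) for Adamts4, 1.62 ± 0.47 (SE, adjusted p = 0.48) for Adamts18 and 0.99 ± 0.39 (SE, adjusted p = 0.845) for Adamtsl4. These were the 3 smallest p-values of the 38 genes in that comparison. Without P38 mouse 12, the low mouse of that age, the value for Adamts4 was 3.34 (adjusted p = 0.0445), and with the lens score as a covariate it was 1.76 (adjusted p = 0.991). Against P30, Adamts18 at P34 had a log2 fold change of -1.49 ± 0.47 (SE, adjusted p = 0.29), which was -0.40 (adjusted p = 0.92) with the lens score as a covariate. From P34 to P38 that covariate gave 0.68 for Adamts18 and 0.46 for Adamtsl4. Adamts4 at P34 against P32 had -2.16 ± 0.78 (SE, adjusted p = 0.121), without P32 mouse 6 it had -2.56 (adjusted p = 0.0429), and with the lens score as a covariate it had -0.69 (adjusted p = 0.827). With the ciliary body and iris score as a covariate all of these turned in sign. From P34 to P38 they became -1.24 for Adamts4, -0.92 for Adamts18 and -1.58 for Adamtsl4, Adamts18 at P34 against P30 became 1.78 and Adamts4 at P34 against P32 became 1.86 (adjusted p of at least 0.767).

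**Figure D4:**
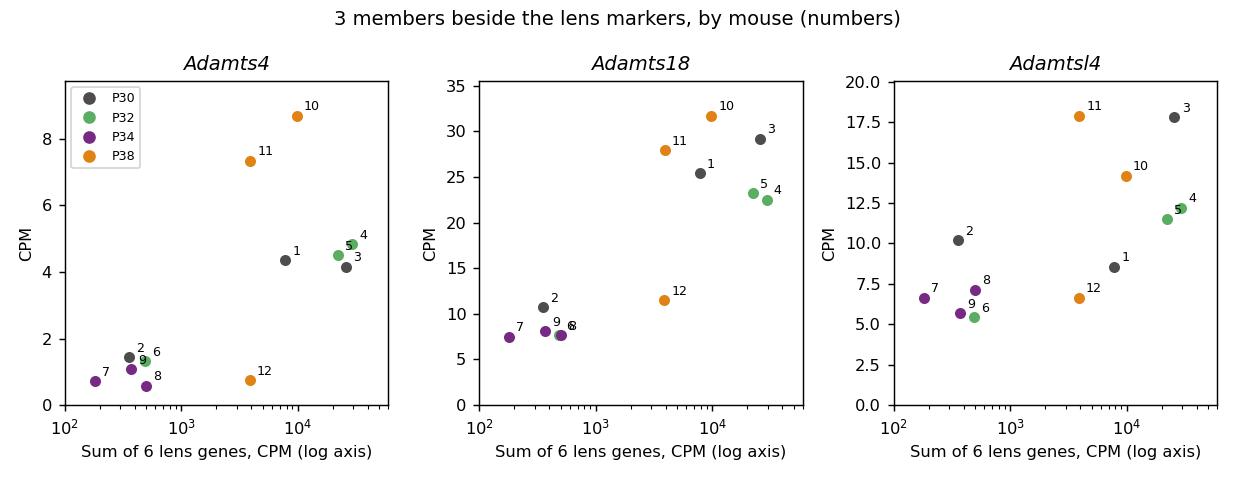
CPM of Adamts4, Adamts18 and Adamtsl4 (vertical axes, each from 0) against the summed CPM of 6 lens genes (log axis), with a point for each mouse, numbered and colored by age. Mice 2, 6, 7, 8 and 9 sit at the lower left for Adamts4 and Adamts18, for Adamtsl4 mouse 2 lies above mouse 1, and mouse 12 has a lens sum of 3871 CPM and low values of all 3 genes.

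The other proteases that cleave lecticans were steadier. Adamts9, which cleaves versican, was at 2.89, 3.84 and 3.33 (P30), 3.12, 3.00 and 1.70 (P32), 1.88, 1.67 and 1.69 (P34) and 2.16, 2.67 and 2.82 CPM at P38. All P34 and P38 mice and P32 mouse 6 lay below the P30 mice. Its log2 fold change was -0.94 ± 0.24 (SE, adjusted p = 0.165) at P34 against P30 and 0.54 ± 0.24 (SE, adjusted p = 0.956) from P34 to P38, and with DESeq2 the P34 value against P30 had an adjusted p of 0.0262. With the ciliary body and iris score as a covariate it was 0.17 (adjusted p = 0.958). Exons of A730049H05Rik and Gm15737, both on the opposite strand, cover 9.2% and 2.8% of its exon length. Adamts1, a versican-cleaving enzyme that restrains vessel growth, was at 20.8, 36.1 and 32.5 (P30), 19.1, 23.1 and 23.7 (P32), 17.9, 25.6 and 28.3 (P34) and between 18.5 and 21.9 CPM at P38. P30 mouse 1, low in pigment cell and smooth muscle genes beside the other P30 mice, lay among the later mice, and the log2 fold change was -0.44 ± 0.21 (SE, adjusted p = 0.698) at P32, -0.32 ± 0.21 (SE, adjusted p = 0.626) at P34 and -0.57 ± 0.21 (SE, adjusted p = 0.847) at P38. Adamts5, the neighbour of Adamts1 on chromosome 16 and the main aggrecan-cleaving enzyme of cartilage, was at 59.2, 58.3 and 55.8 (P30), 85.6, 65.5 and 62.3 (P32), 58.2, 56.8 and 57.1 (P34) and 53.3, 70.6 and 59.3 CPM at P38. The P32 mice lay above P30, led by mouse 4, with a log2 fold change of 0.30 ± 0.13 (SE, adjusted p = 0.698), below the limit of 0.5. Without P32 mouse 4 it was 0.15, and at P34 and P38 it was -0.01 and 0.08. Adamts8, Adamts15 and Adamts20 had log2 fold changes between -0.37 and 0.16 against P30 at the 3 ages.

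Of the enzymes that trim procollagens, Adamts2 was low at P34. It was at 1.91, 2.38 and 2.64 (P30), 1.74, 3.05 and 1.97 (P32), 1.02, 1.03 and 1.79 (P34) and 1.80, 2.06 and 1.83 CPM at P38. The P34 mice lay below the P30 mice, and P34 mouse 9 overlapped P32. Its log2 fold change was -0.85 ± 0.29 (SE, adjusted p = 0.313) at P34 against P30 and -0.82 ± 0.29 (SE, adjusted p = 0.115) against P32. The value against P32 was -0.54 (adjusted p = 0.279) without P32 mouse 5 and -0.25 (adjusted p = 0.961) with the ciliary body and iris score as a covariate. Adamts3, chosen here after its values were seen, was at 16.3, 28.1 and 31.1 (P30), 5.04, 17.9 and 23.9 (P32), 23.6, 34.7 and 30.9 (P34) and 36.9, 44.7 and 35.2 CPM at P38. The P38 mice lay above all P30 mice and P32 mouse 4 was lowest, with a log2 fold change at P38 of 0.63 ± 0.41 (SE, adjusted p = 0.847). The balance of long against short transcripts, -1.18 in P32 mouse 4 and 0.41 in P38 mouse 11, was lowest and highest in the same 2 mice as Adamts3, and its part in these values was not tested.

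Among the other ADAMTS proteases, Adamts16 was at 3.25, 5.41 and 4.96 CPM at P30 and at 2.16, 2.97 and 2.56 CPM at P32. All P32 mice lay below P30, as did all P34 mice at 2.24, 3.14 and 3.01 CPM, with log2 fold changes of -0.82 ± 0.27 (SE, adjusted p = 0.698) and -0.70 ± 0.27 (SE, adjusted p = 0.401). Its lowest P30 value was in mouse 1, the P30 mouse low in pigment cell and smooth muscle genes. Beside Adamts16 and Adamts18, the 6 others of that group (Adamts6, Adamts7, Adamts10, Adamts12, Adamts17 and Adamts19) had no unadjusted p of at most 0.05 with the fold change limit in any comparison. The same held for Adamtsl1, Adamtsl2, Adamtsl3 and Adamtsl5.

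**Figure D5:**
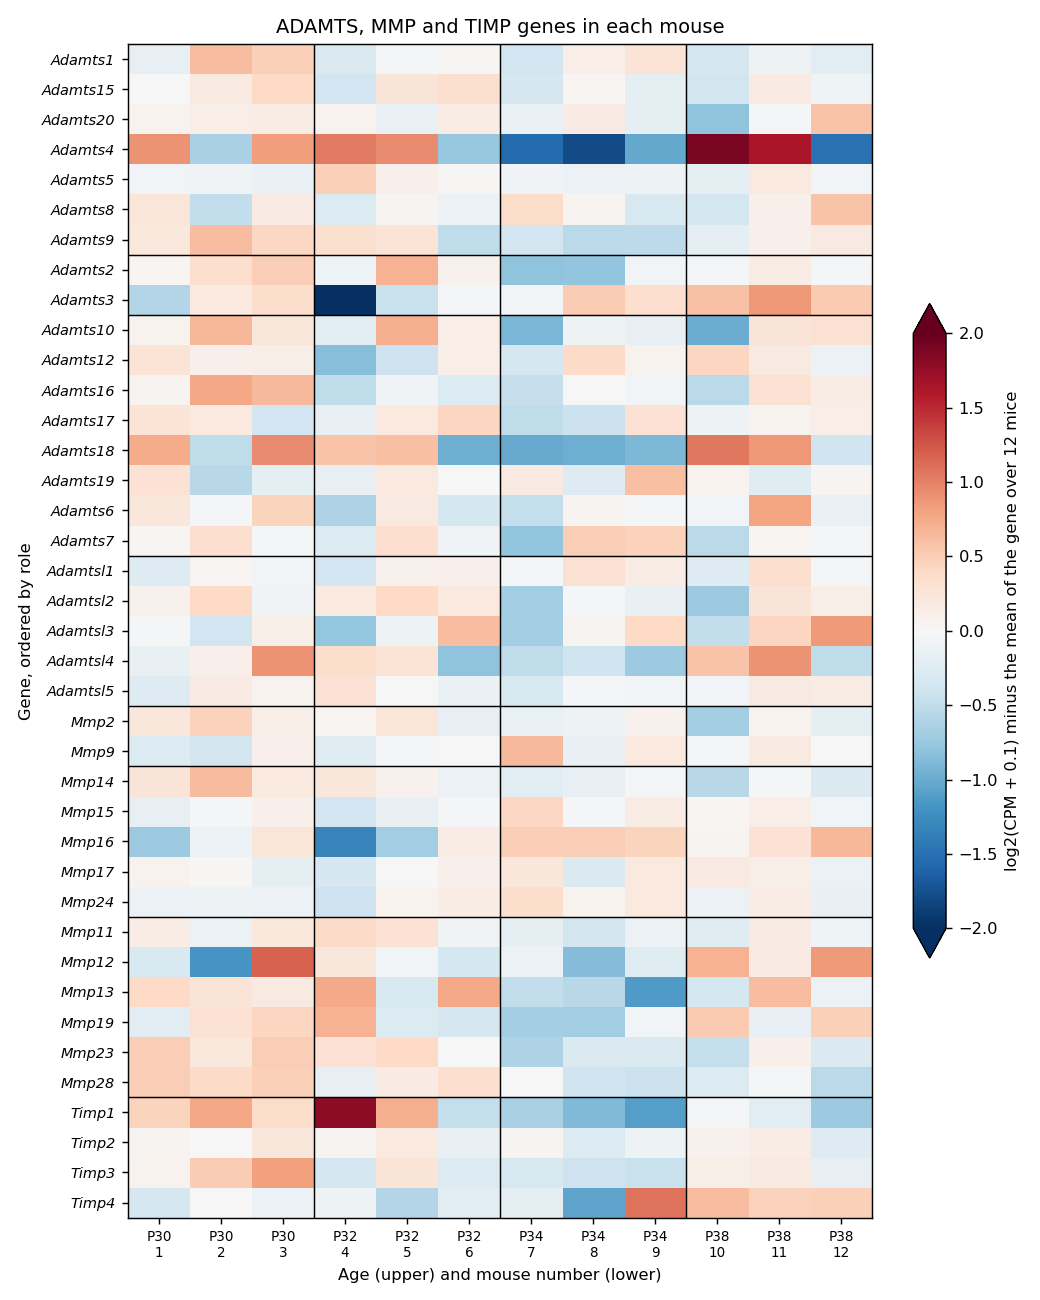
Log2(CPM + 0.1) of each of the 39 genes (rows, ordered by role) in each of the 12 mice (columns), relative to the mean of the gene over all mice. The rows of Adamts4 and Adamts18 hold high and low mice within each age but P34, where all 3 are low, Timp1 and Timp3 are low throughout P34, and Adamts3 and Mmp16 are lowest in P32 mouse 4.

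For levels between genes, CPM were divided by exon length in kilobases (RPKM). The TIMPs led at P30: Timp2 was at 24.4 ± 2.11 RPKM (SD, n = 3) and Timp3 at 18.5 ± 4.66 RPKM, ranges that do not overlap the next genes. Mmp9 (6.13 ± 1.11 RPKM), Mmp24 (5.99 ± 0.0290), Adamts1 (5.62 ± 1.51) and Adamts5 (5.35 ± 0.162) followed. Neighbours in this order overlapped, while every P30 mouse was higher in Mmp24 than any was in Adamts5. Of the other inhibitors, Timp1 (1.07 ± 0.180 RPKM) was 18th of the 39 genes and Timp4 (0.0542 ± 0.00816 RPKM) was 37th. Summed over the 4 inhibitors, the P30 mice had 44.0 ± 6.25 RPKM, the P32 mice 37.2 ± 5.64, the P34 mice 31.7 ± 2.81 and the P38 mice 37.2 ± 5.22. The 13 MMPs summed to 25.8 ± 0.887 RPKM at P30 and 28.5 ± 4.25 at P34, and the 17 ADAMTS proteases to 23.7 ± 2.94 and 19.8 ± 2.66. The inhibitor sum at P34 (29.1 to 34.7 RPKM) lay below that at P30 (38.6 to 50.8 RPKM), while the sums of the proteases overlapped. Timp2 and Timp3 make up most of the inhibitor sum, and of its fall Timp3 (18.5 to 9.97 RPKM), which did not pass, made the larger part, beside Timp2 (24.4 to 21.3), Timp1 (1.07 to 0.334) and Timp4 (0.0542 to 0.0739).

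Among the matrix proteins that these enzymes cut, 3 of 15 (Vcan, Fbn1 and Col1a2) fell at P34 against P30 past the threshold, and the same 3 were lower at P34 than at P32 and higher at P38 than at P34. Vcan, the lectican versican and a substrate of ADAMTS1, ADAMTS4, ADAMTS5 and ADAMTS9, was at 17.9, 22.4 and 26.7 (P30), 12.2, 18.2 and 12.0 (P32), 2.93, 2.92 and 2.34 (P34) and 16.9, 22.1 and 15.3 CPM at P38. The P34 mice lay far below all others, with a log2 fold change of -3.03 ± 0.23 (SE, adjusted p = 0.000171, edgeR) against P30. Fbn1, the fibrillin that ADAMTS-like proteins bind, had -2.03 ± 0.23 (SE, adjusted p = 0.00158), and Col1a2, a chain of the collagen whose precursor ADAMTS2 trims, had -1.90 ± 0.29 (SE, adjusted p = 0.0117). Col1a1, the other chain of that collagen, had -0.89 ± 0.59 (SE, adjusted p = 0.624). Col3a1, Bcan, Ncan, Fn1 and Thbs1 were not lower at P34, with log2 fold changes of 0.01 to 0.24 against P30. Over the 15 substrates the median log2 fold change at P34 was -0.89, and 8 of them were lower at an unadjusted p of at most 0.05 with a change of at least 0.5, beside 5.42% of all genes. The 3 past the threshold stand beside 0.66% of all genes. This list was chosen with earlier results of these data known, so its shares beside those of all genes are a description and no test. Of 11 activators and other inhibitors tested, which include Furin, Bsg and Reck, 0 passed at P34 with edgeR or with DESeq2, and the median of their log2 fold changes was -0.04. At an unadjusted p of at most 0.05 and a change of at least 0.5, 2 of the 11 were lower, beside 5.42% of all genes, and 1 was higher, beside 0.854%. The lower genes were A2m, a general protease inhibitor of plasma, at -0.64 ± 0.19 (SE, adjusted p = 0.252), and Plau, the urokinase-type plasminogen activator, at -1.24 ± 0.51 (SE, adjusted p = 0.43). The higher gene was Pcsk6, a proprotein convertase, at 0.50 ± 0.14 (SE, adjusted p = 0.232). Of 10 genes of the related ADAM family tested, 0 passed in any comparison, at a median of -0.06 at P34. The ciliary body and iris sums given above were lowest in the same 3 P34 mice, and with that score as a covariate none of these genes passed. The fibroblast sums, which include Col1a2, were 64.2 to 94.9 CPM at P30 and 26.5 to 49.4 CPM at P34. The smooth muscle sums were 29.5 to 198 CPM at P30 and 9.33 to 13.9 CPM at P34. The part of these markers in the fall of Vcan, Fbn1 and Col1a2 was not tested.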

How the data were processed

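The authors made stranded mRNA libraries from whole retina, read 50 bp from 1 end, aligned the reads to mm10 using STAR 2.5.3a, and used HTSeq 0.6.1p1 to count them by gene (versions per the submitters' processing notes). They deposited these raw counts per gene, 1 column per mouse, without normalization. Reads with no unique position (23.7 to 32.2% of reads) or on no gene (6.53 to 13.7%) were left out of library sizes. Symbols and exon lengths came from GENCODE M21, which named 54079 (99.9%) of the genes. Tsix had 2 to 10 counts per mouse while Xist, on the opposite strand, had up to 114682.

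In R 4.3.3 with edgeR 4.0.16, counts were scaled by TMM, filtered by edgeR's filter on low counts (18628 genes) and fitted with 1 mean per age over all 12 mice. P-values of the quasi-likelihood test were adjusted by Benjamini and Hochberg, and the standard error is the size of the log2 fold change over the square root of F. The procedure was tested on simulated counts. Alternatives were DESeq2 1.42.0, its size factors, other filters, only the ages compared, sex or a ciliary body and iris score as a covariate, other thresholds and leaving out each mouse. The lens score covariate was added after seeing the data. No libraries were duplicates by their counts. Samples were grouped by their labels.

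The genes, role groups and lists were chosen with earlier results of these data known. A rod marker and 1 gene of the list of activators and other inhibitors are not reported here and stand outside the counts and sums of their lists. Genes described in full are, in each comparison, the 5 members with the smallest unadjusted p, with the 4 TIMPs, the 5 members with the highest RPKM at P30 and every member past the threshold, of which there was none. Whether mice came from separate litters is not given, so p-values measure the spread between these mice.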

Additional observations from a re-analysis of the deposited data

How the results depend on the processing

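No paired analysis was possible because the mice are numbered 1 to 12 and no number is shared between ages. Scaling by DESeq2's size factors, another filter (10 counts in 3 libraries), dropping the fold change limit and the lens score as a covariate (added after seeing the data) left all counts of members past the threshold at 0, as did the ciliary body and iris score. Members lower at P34 than at P30 were 2 with DESeq2 (Adamts9 and Timp3), 2 with no filter (Adamts18 and Timp3), 2 with only the 2 ages (Timp1 and Timp3), 1 with sex as a covariate (Timp1) and 11 at the unadjusted p. Members lower at P34 than at P32 were 1 (Timp1) with DESeq2, with no filter and with sex as a covariate and 6 at the unadjusted p, and those higher were 1 with DESeq2 (Mmp16) and 2 at the unadjusted p. Members higher at P38 than at P34 were 1 with no filter (Adamts4) and 4 at the unadjusted p. At the unadjusted p, 2 were lower at P32 and 5 at P38 than at P30. For any difference, there were 3 with DESeq2 (Mmp14, Timp1 and Timp3), 1 with no filter (Timp3) and 11 at the unadjusted p.

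Leaving out 1 mouse at a time, members lower at P34 than at P30 were 0 to 1 (Timp3 without P30 mouse 1 or P32 mouse 5, Adamts9 without P32 mouse 6). Members lower at P34 than at P32 were 0 to 4 and higher 0 to 1, members higher at P38 than at P34 were 0 to 1 (Adamts4 without P38 mouse 12), and members with any difference were 0 to 1. The 4 lower (Adamts18, Adamts4, Adamts9 and Timp1), the higher (Mmp16) and the difference (Timp1) came without P32 mouse 6, where 2726 of all genes passed between P34 and P32, against 45 with it. Members wholly below P30 were 3 to 7 at P32, 14 to 17 at P34 and 6 to 11 at P38, and wholly above 1 to 3, 2 to 5 and 2 to 5. Fewer mice overlap less often by construction.

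Of 520 log2 fold changes of a named member under an alternative, 509 kept their sign. The 11 that turned did so with the ciliary body and iris score as a covariate. At P34 against P30 they became 1.78 for Adamts18, 0.17 for Adamts9, 1.73 for Timp1 and 0.40 for Timp3, and at P34 against P32 they became 1.86 for Adamts4 and 0.59 for Timp1. From P34 to P38 they became -0.92 for Adamts18, -1.24 for Adamts4, -0.26 for Adamts9, -1.58 for Adamtsl4 and -0.50 for Timp3. Adjusted p-values of these were at least 0.767. The P34 sums of these markers overlap those of no other mouse, so the covariate and the age P34 can hardly be told apart. The standard errors at P34 were a median of 3.17 times as large with it (2.10 to 3.40, but 5.06 for Adamts19). The cause was not tested.

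Over all genes, the counts past the threshold with DESeq2 were 25, 369 and 45 at P32, P34 and P38 against P30, 1422 for P34 against P32, 144 for P38 against P34 and 1368 for any difference. With no filter they were 23, 298, 18, 656, 115 and 413. With only the 2 ages they were 229 at P34 against P30, 11 for P34 against P32 and 71 for P38 against P34. With sex as a covariate, 92 passed for P34 against P32. With the lens score they were 53, 10, 13 and 21 for P34 against P30, P34 against P32, P38 against P34 and any difference. With the ciliary body and iris score 0 passed in each comparison, and at the unadjusted p they were 540, 1168, 645, 2687, 709 and 3212. Leaving out 1 mouse, they ranged over 0 to 19, 43 to 213, 0 to 13, 14 to 2726, 8 to 58 and 2 to 587. There were 3 mice per age, and Mmp12, Mmp13 and Timp4 had at most 26 counts in a mouse. Whether depth or the spread between mice limits such genes more was not tested.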
